A study of Mus musculus with 20 samples.

Results

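Serpins are a family of proteins that share 1 fold and that mostly inhibit serine proteases. An inhibitory serpin presents an exposed stretch, the reactive centre loop, as bait, and the protease that cuts it is trapped in a covalent complex. The liver secretes the serpins of plasma, which control neutrophil proteases, clotting, fibrinolysis and complement, whereas clade B serpins stay inside cells and a few serpins carry hormones or fold collagen. The members described here are the rows whose symbol starts with Serpin, 2 genes left out, and whose mean expected count over the 20 libraries was at least 5. Of 61 such rows among 22298 listed genes, 27 were members, and all 27 passed the low-count filter of the test. Clade A gave 15 of its 23 rows, clade B 5 of 28, clade E 1 of 2 and clade F both of its 2, while the single genes of clades C, D, G and H were all members and neither row of clade I was. Serpina5 with a mean count of 10.4 and Serpine2 with 19.4 lay just inside the threshold, and Serpini1 with 3.95 and Serpinb1c with 2.90 lay just outside it.

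The libraries were bulk mRNA of livers from 20 male mice that all carried the Lepr db/db mutation. It inactivates the receptor of leptin and leads to obesity and diabetes, in the control group as in the others. At 5 weeks of age every mouse was injected with AAV8, a virus that reaches the liver, carrying in the Vec groups a non-targeting shRNA and in the shRNA groups a set of shRNAs against Pparg, the gene of the nuclear receptor PPARγ. For 4 weeks the mice then received vehicle or benzbromarone (BBR), a uricosuric gout drug, at 25 mg per kg once daily by gavage, which gave 5 mice each in Vec (labelled control), Vec+BBR (benzbromarone), shRNA (PPAR knockdown) and shRNA+BBR (PPAR knockdown + benzbromarone). A knockdown leaves part of the transcript. From tissue staining and western blots, the paper reports that BBR-mediated PPARγ expression was attenuated in hepatocytes of the knockdown mice. The bulk RNA does not show which liver cells took up the vector.

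Pparg was measured at 16.4, 20.1, 35.9, 19.4 and 32.1 CPM in the Vec livers and at 7.31, 6.53, 5.96, 3.24 and 5.63 CPM in the shRNA livers, where CPM are counts scaled to library size with TMM normalization and the values are in the order of replicates 1 to 5. The groups did not overlap (log2 fold change -2.12 ± 0.28, adjusted p = 4.47e-05), and among BBR-treated mice Pparg was lower with knockdown (log2 fold change -1.20 ± 0.26, adjusted p = 0.00843), at 7.19 to 21.8 against 28.02 to 38.3 CPM. Within the shRNA mice it was higher with BBR (log2 fold change 1.28 ± 0.28, adjusted p = 0.00773). The shRNA+BBR livers gave 11.4, 9.99, 21.8, 18.9 and 7.19 CPM, and replicates 3 and 4 of them lay within the Vec range. Log2 fold changes here are those of edgeR with their standard error, and adjusted p-values are corrected over 12342 tested genes, with a threshold of 0.05. Each call was repeated in alternative fits, which used other tools and settings or left out 1 liver at a time, and a call is said to be lost where its adjusted p-value was then no longer under the threshold. Library totals ran from 17432904 to 25024099 counts, so that 3 counts, taken as the floor of detection, correspond to 0.121 to 0.193 CPM. The Vec mice varied among themselves. Of the 27 members, Vec replicate 2 was the highest of its group in 11, replicate 3 was the highest in 7 and the lowest in 10, and replicate 4 was the lowest in 10.

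The levels of the members spanned more than 4 orders of magnitude. In FPKM, which are scaled to transcript length and allow genes to be compared, Serpina1b was the highest member with a mean of 6076 over the 20 livers and ranked 12 among all genes. It was followed by Serpina1d (2784 FPKM), Serpina3k (2725), Serpina1c (2400), Serpinc1 (2157) and Serpina1a (2060). Serpinf1 was the next member, at 465 FPKM, and Serping1 was at 413 FPKM. The leading clade B member, Serpinb6a, was at 13.2 FPKM and Serpinh1 at 4.41 FPKM. Serpina5 was the lowest member with 0.225 FPKM. In all, the members took between 2.09% and 4.43% of the counts of a library.

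**Figure D1:**
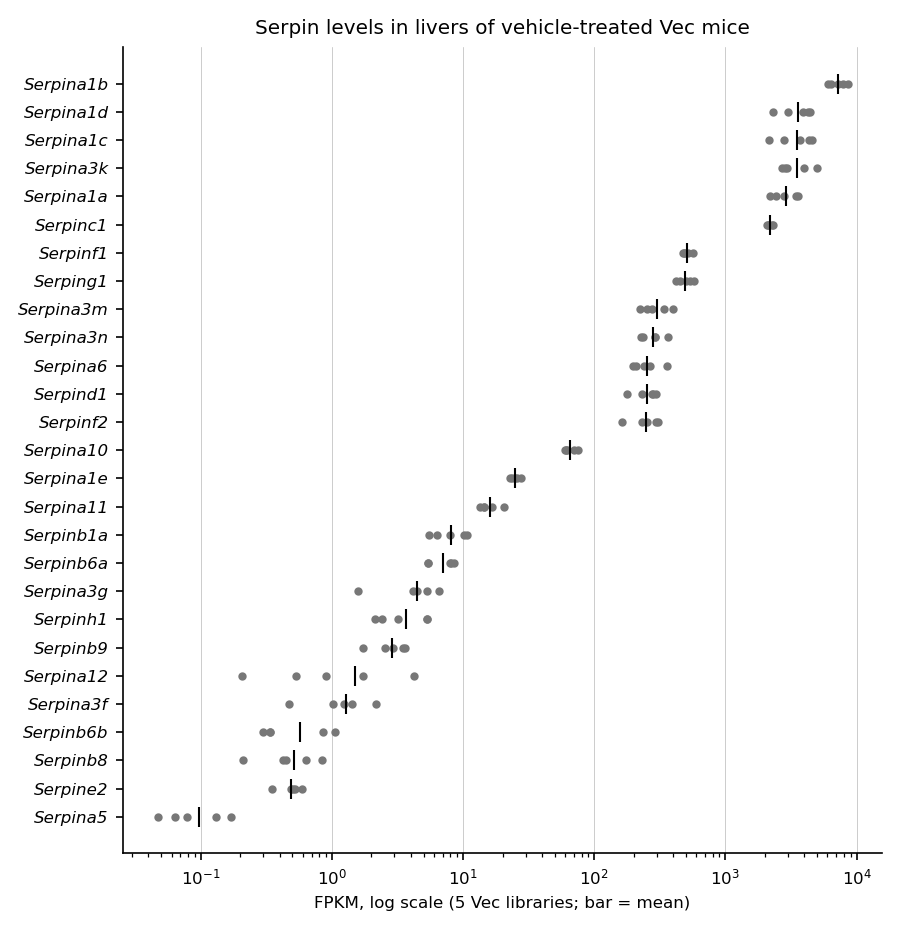
FPKM on a log scale of the 27 Serpin genes in the 5 livers of the vehicle-treated Vec mice, with 1 point per liver and a bar at the mean. The 4 abundant Serpina1 copies, Serpina3k and Serpinc1 stand above the other members, and Serpina5, Serpine2 and Serpinb8 lie at the low end.

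All 15 clade A members lie on chromosome 12 within 799.5 kb (GENCODE M21 on GRCm38), and the Serpina1 and Serpina3 copies are so alike that reads can match several of them. Across their coding sequences the Serpina1 copies a to e were 96.29% to 98.47% identical over 10 pairs. Of all 75-base windows of the coding sequence, the share that also occurs in another transcript was 78.2% for Serpina1c, 69.9% for Serpina1a, 41.6% for Serpina1d, 35.8% for Serpina1b and 25.4% for Serpina1e. It was 13.0% for Serpina3m, 12.4% for Serpina3k and 2.46% for Serpina3n. The gene model of Serpina3m also spans that of the more abundant Serpina3k on the same strand, and the model of Serpina1b spans that of Serpina1d. How reads in these overlaps were assigned is not known. The expected counts of Serpina1a to Serpina1e, Serpina3k, Serpina3m and Serpinc1 held fractions of reads in all 20 libraries, so reads had been divided between genes by an estimate, and the values of these single genes are uncertain. The sum over the listed copies does not depend on how reads were divided among those copies and is given beside them. It can still depend on the division with other models, since Serpina1a and Serpina1c share windows with Gm8893, and Serpina3f, Serpina3g and Serpina3n with Serpina3e-ps, which are outside the sums.

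The copies differ more in the bait loop than over the coding sequence as a whole. The coding stretch of the loop, 69 bases within 1 exon, was 85.51% to 94.2% identical between the Serpina1 copies, and 15 of its bases differ in at least 1 copy. The 5 stretches (GRCm38, written 5′ to 3′ on the coding strand) are shown because the loop decides which protease is bound. Capitals mark the bases that differ among the 5 copies, which are among the places where a read can tell copies apart. Some of these bases are shared by several copies and do not point to a single one.
Serpina1a at chr12:103853762-103853830 on the minus strand: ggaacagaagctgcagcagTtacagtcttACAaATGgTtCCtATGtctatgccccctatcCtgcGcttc
Serpina1b at chr12:103728329-103728397 on the minus strand: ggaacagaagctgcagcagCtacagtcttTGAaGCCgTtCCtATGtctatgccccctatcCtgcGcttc
Serpina1c at chr12:103895099-103895167 on the minus strand: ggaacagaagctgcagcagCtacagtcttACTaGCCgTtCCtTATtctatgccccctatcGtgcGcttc
Serpina1d at chr12:103763767-103763835 on the minus strand: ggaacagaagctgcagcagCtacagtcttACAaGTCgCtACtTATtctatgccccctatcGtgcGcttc
Serpina1e at chr12:103947105-103947173 on the minus strand: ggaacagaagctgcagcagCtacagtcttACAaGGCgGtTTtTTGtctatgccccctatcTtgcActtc

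The Serpina3 copies differ further in this stretch. Between the 3 most abundant of them it was 61.11% to 73.61% identical, and capitals again mark the bases that differ.
Serpina3k at chr12:104345269-104345340 on the plus strand: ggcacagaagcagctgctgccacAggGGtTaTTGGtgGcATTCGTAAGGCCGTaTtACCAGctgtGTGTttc
Serpina3m at chr12:104393769-104393846 on the plus strand: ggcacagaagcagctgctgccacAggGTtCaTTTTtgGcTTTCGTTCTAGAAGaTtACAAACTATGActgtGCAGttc
Serpina3n at chr12:104413448-104413525 on the plus strand: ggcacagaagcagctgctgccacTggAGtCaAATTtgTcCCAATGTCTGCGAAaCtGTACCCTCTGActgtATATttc

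The promoters of the Serpina1 copies were close to each other as well. Promoter windows of 300 bases, taken from RefSeq on GRCm38.p6 for 21 of the 27 members, were 91.7% to 98.39% identical over the 10 pairs of Serpina1 copies. The windows are not placed alike against the GENCODE gene models. Those of Serpina1a and Serpina1c lie wholly upstream of the model, and those of Serpina1b and Serpina1e lie inside it. The windows of Serpina1b and Serpina1c are printed because these abundant copies had the smallest and the largest decrease among the 5 in Vec+BBR against Vec. Capitals mark bases that differ between any of the 5 copies within the 241 aligned positions that all 5 windows cover. Bases outside these positions are in lower case whether or not they differ.
Serpina1b at chr12:103738140-103738439 on the minus strand: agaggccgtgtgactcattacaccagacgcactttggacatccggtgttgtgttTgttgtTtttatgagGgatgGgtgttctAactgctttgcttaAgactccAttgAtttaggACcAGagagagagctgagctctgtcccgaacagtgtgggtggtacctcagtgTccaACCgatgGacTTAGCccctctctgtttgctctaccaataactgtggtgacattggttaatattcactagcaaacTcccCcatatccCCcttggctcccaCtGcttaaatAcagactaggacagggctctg
Serpina1c at chr12:103904901-103905200 on the minus strand: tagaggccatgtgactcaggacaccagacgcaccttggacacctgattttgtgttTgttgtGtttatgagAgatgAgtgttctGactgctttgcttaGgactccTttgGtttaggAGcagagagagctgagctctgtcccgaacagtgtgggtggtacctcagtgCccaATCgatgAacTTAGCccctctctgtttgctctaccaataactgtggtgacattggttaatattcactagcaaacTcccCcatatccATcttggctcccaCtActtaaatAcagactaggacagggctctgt

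Both windows hold the letters GTTAAT, which is part of the binding motif of HNF1, a factor of hepatocytes, and they hold CCAAT. On either strand GTTAAT occurred in all 5 Serpina1 windows and in 7.10% of the 32851 windows in the table, and CCAAT occurred in all 5 and in 37.4% of the table. The letters AGGTCA repeated in the same direction with any 1 base between them, the consensus of PPAR with its partner RXR, were in none of the 21 member genes and in 0.0396% of the table. TTCNNNGAA, the core of STAT motifs, was in Serpina11, Serpina3f, Serpina3g and Serpinb6a and in 8.30% of the table. These are letter matches in a short window and no measurement of binding.

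With BBR in mice that received the control vector, many of the abundant serpins of plasma were lower. Of the 27 members, 12 fell (44.4%) and 2 rose (7.41%) in Vec+BBR vs Vec, against 7.88% of all tested genes that fell and 7.58% that rose. The share of members that rose was thus near that of all genes. The median log2 fold change of the members was -0.32, and over all genes it was -0.01. Those that fell were Serpina1a to Serpina1e, Serpina3k, Serpina6, Serpinc1, Serpind1, Serpinf1, Serpinf2 and Serping1, and those that rose were Serpinb6a and Serpinh1. The count of 14 was 9 with only the groups compared in the fit. Of the 14 calls, 9 held in every alternative fit, namely those of the 5 Serpina1 copies, Serpina3k, Serpinb6a, Serpinf1 and Serping1.

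Under PPARγ knockdown, BBR moved 11 of the 27 members, of which 8 fell and 3 rose (shRNA+BBR vs shRNA), beside 7.28% and 8.37% of all genes. Serpina1a to Serpina1d, Serpina3m, Serpina3n, Serpind1 and Serpinf2 fell, and Serpina3g, Serpinb6b and Serpinh1 rose. The median over the members was -0.12 against 0.01 over all genes. This count rested on single livers: it was 3 without shRNA+BBR replicate 3, 4 without shRNA replicate 2 or shRNA+BBR replicate 4, 5 without shRNA replicate 4 or shRNA+BBR replicate 2, 6 without shRNA replicate 5, and 7 without shRNA replicate 1. The calls of Serpina1d, Serpina3m and Serpinh1 held in every fit. In shRNA+BBR replicates 3 and 4 Pparg was at 21.8 and 18.9 CPM, within the Vec range of 16.4 to 35.9 CPM. The knockdown was therefore not equally deep in all livers of this comparison, and its part in these values was not tested.

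Without BBR, knockdown was followed by a decrease of serpins of several clades. Between shRNA and Vec 8 members fell (29.6%) and 2 rose (7.41%), where 7.91% of all genes fell and 5.28% rose. The share of members that rose was near that of all genes. The median of the members was -0.33 against -0.01. Serpina10, Serpina11, Serpina1a, Serpina1e, Serpinb9, Serpinf2, Serping1 and Serpinh1 fell, and Serpina3m and Serpina5 rose. The total of 10 was 6 without Vec replicate 1 or 2 or shRNA replicate 1 or 4, and 5 without shRNA replicate 5. The calls of Serpina11, Serpina1e, Serpina5, Serpinb9 and Serpinf2 held in every fit. Markers of liver cell types moved in the same comparison. Of 10 hepatocyte markers 3 fell and none rose, with a median of -0.43, and their sum ranged from 143900 to 176300 CPM in Vec and from 130400 to 144300 CPM in shRNA. Of 10 endothelial markers 4 rose and none fell, with a median of 0.39, and their sum ranged from 140.1 to 187.5 CPM in Vec and from 180.5 to 246.0 CPM in shRNA. Of 12 stellate cell markers 1 fell, Col1a1 (-1.12, adjusted p = 0.0303). Their part in the values of the serpins was not tested. This comparison shares the 5 Vec livers with that of Vec+BBR against Vec, and the values of each are therefore given side by side and not compared as a pattern.

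In the BBR-treated mice, few members differed with knockdown. Between shRNA+BBR and Vec+BBR Serpina11 and Serpinf2 fell and no member rose by edgeR, beside 4.82% and 3.31% of all genes. The median of the members was 0.12. At an unadjusted p-value under 0.05 there were 8 of 27 members, beside 24.7% of all genes. The count of 2 was 1 without Vec+BBR replicate 2 or shRNA+BBR replicate 1, 3 or 4, and 0 without Vec+BBR replicate 3, 4 or 5 or shRNA+BBR replicate 2. For the difference of the BBR effects between the vectors, no member passed the threshold in edgeR, and over all genes 0.0729% were past it in each direction. An unadjusted p-value under 0.05 was found for 9 of 27 members, beside 18.5% of all genes, and DESeq2 called 1. This difference, taken as the BBR effect in shRNA mice minus that in Vec mice, was above 0 in 21 of 27 members with a median of 0.34 on the log2 scale, against 0.01 over all genes. The members include copies that share reads. A shift was not particular to the serpins, since the 10 hepatocyte markers had a median of 0.50 for this difference and the 10 endothelial markers one of -0.41.

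**Figure D2:**
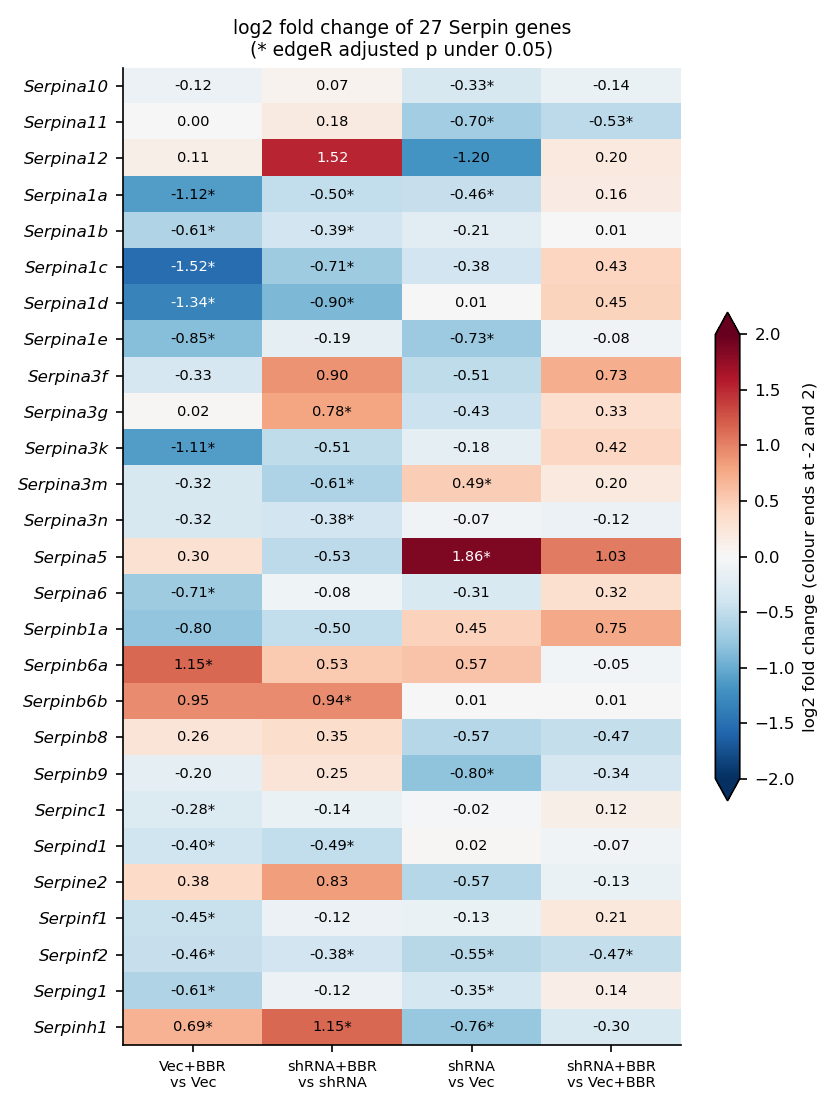
Log2 fold change of each of the 27 Serpin genes (rows) in 4 comparisons (columns), printed in the cell and coloured from blue (lower in the first group) to red (higher in the first group), with an asterisk where the edgeR adjusted p-value was under 0.05. The Serpina1 rows are blue in both BBR columns, Serpinh1 is red in both, and the last column holds 2 asterisks.

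The Serpina1 copies encode the α1-antitrypsin proteins of the mouse, a group that includes inhibitors of neutrophil elastase. Their loops differ, and which protease each copy inhibits was not tested here. Serpina1b, the leading copy, gave 11730, 13610, 8940, 10150 and 9065 CPM in the Vec livers and 8092, 6111, 7051, 6590 and 7318 CPM in the Vec+BBR livers. Every BBR-treated liver was below every Vec liver, and the copy fell (log2 fold change -0.61 ± 0.12, adjusted p = 0.001997). Its values were 8682, 9882, 8893, 8866 and 10010 CPM in shRNA and 7706, 7213, 6560, 6217 and 7741 CPM in shRNA+BBR. These groups did not overlap either, and Serpina1b fell there too (log2 fold change -0.39 ± 0.12, adjusted p = 0.0328), a call that was lost without shRNA replicates 2, 4 or 5 or shRNA+BBR replicates 2, 3 or 4 (adjusted p = 0.0514 to 0.0906).

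Serpina1c fell furthest of the copies in the Vec mice, to 0.35 of its control level on the ratio scale. It was at 6657, 6821, 3115, 5079 and 3913 CPM in Vec and at 2162, 1518, 1727, 1595 and 1943 CPM in Vec+BBR, with no overlap (log2 fold change -1.52 ± 0.21, adjusted p = 0.000163). In the knockdown mice it was at 3941, 4895, 3192, 3678 and 3961 CPM without BBR and at 2650, 2592, 1947, 1563 and 3265 CPM with it. It fell there as well (log2 fold change -0.71 ± 0.21, adjusted p = 0.0261), with shRNA+BBR replicate 5 inside the range of the shRNA group, and the call was lost without shRNA replicate 2 or shRNA+BBR replicates 3 or 4 (adjusted p = 0.0662 to 0.0828).

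Serpina1d showed the decrease under both vectors in every fit. Its values were 5861, 6863, 3419, 6185 and 4250 CPM in Vec and 2355, 1905, 2007, 1926 and 2324 CPM in Vec+BBR, all lower in the latter (log2 fold change -1.34 ± 0.18, adjusted p = 0.000153). In shRNA they were 5138, 5460, 5076, 5262 and 5897 CPM and in shRNA+BBR 3557, 2807, 2104, 2076 and 3789 CPM. Here too no BBR-treated liver reached the untreated ones (log2 fold change -0.90 ± 0.18, adjusted p = 0.005002). For knockdown without BBR the log2 fold change was 0.01, not past the threshold (adjusted p = 0.972).

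Serpina1a fell with BBR under both vectors and with knockdown alone. It was at 5037, 5587, 3183, 3804 and 3359 CPM in Vec and at 1982, 1749, 1982, 1894 and 2026 CPM in Vec+BBR, with all BBR-treated livers below the others (log2 fold change -1.12 ± 0.15, adjusted p = 0.000112). The shRNA livers gave 3019, 3616, 2684, 3025 and 2851 CPM and the shRNA+BBR livers 2365, 2121, 2108, 1609 and 2574 CPM. The 2 knockdown groups did not overlap (log2 fold change -0.50 ± 0.15, adjusted p = 0.0288), and that call was lost without shRNA replicates 1, 2 or 4 or shRNA+BBR replicates 2, 3 or 4 (adjusted p = 0.0512 to 0.0738). Against Vec the shRNA level was lower with overlap (log2 fold change -0.46 ± 0.15, adjusted p = 0.0395), and this call was lost without Vec replicates 1 or 2 or shRNA replicates 1, 3, 4 or 5 or with limma-voom, with no low-count filter or with only the groups compared in the fit (adjusted p = 0.0525 to 0.134).

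Serpina1e, a minor copy, had the smallest adjusted p-value of the family. It took a mean of 0.170% of the Serpina1 counts in Vec, 0.179% in Vec+BBR and 0.115% in shRNA, and 25.4% of its windows occur in other transcripts. How much of its level comes from reads of the abundant copies was not tested. The Vec livers held 46.1, 40.9, 42.7, 37.2 and 39.6 CPM, above every liver of the other 3 groups. It was at 23.3, 20.5, 24.4, 22.1 and 24.2 CPM in Vec+BBR (log2 fold change -0.85 ± 0.10, adjusted p = 5.49e-05) and at 26.4, 30.2, 21.8, 23.4 and 22.5 CPM in shRNA (log2 fold change -0.73 ± 0.10, adjusted p = 8.39e-05), each without overlap with Vec. BBR on top of knockdown gave 25.6, 18.5, 18.9, 21.5 and 24.2 CPM, which overlapped the shRNA group (log2 fold change -0.19 ± 0.10, adjusted p = 0.197). The difference of the BBR effects was 0.66 on the log2 scale and missed the threshold in edgeR (adjusted p = 0.0584), with the smallest adjusted p-value of the 27 members for that contrast.

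Summed over all listed Serpina1 rows, the level was 29340, 32930, 18700, 25260 and 20620 CPM in Vec and 14620, 11310, 12790, 12020 and 13630 CPM in Vec+BBR. The groups were apart and the sum fell to 0.508 of the control on the ratio scale (log2 fold change -0.98 ± 0.15, adjusted p = 0.0003099). In the knockdown mice the sum was 20810, 23890, 19870, 20860 and 22740 CPM without BBR and 16300, 14750, 12740, 11480 and 17390 CPM with it. It fell there as well (log2 fold change -0.57 ± 0.15, adjusted p = 0.0155), and the call was lost without shRNA+BBR replicate 3 (adjusted p = 0.0534). Neither knockdown comparison of the sum passed the threshold, with -0.23 for shRNA against Vec (adjusted p = 0.310) and 0.17 for shRNA+BBR against Vec+BBR (adjusted p = 0.4897). For the difference of the BBR effects the sum gave 0.40 (adjusted p = 0.293).

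The copies did not fall in step in the estimated counts. Serpina1b made up 42.7% ± 3.28 (SD, n = 5) of the Serpina1 counts in Vec and 54.6% ± 0.718 in Vec+BBR, and the ranges, 40.0% to 47.8% and 53.7% to 55.4%, did not overlap. Serpina1c made up 19.8% ± 2.23 in Vec and 13.9% ± 0.65 in Vec+BBR. Serpina1d went from 20.8% ± 2.27 to 16.3% ± 0.578. In the knockdown mice Serpina1b took 42.9% ± 1.46 without BBR and 49.3% ± 3.72 with it, and the ranges, 41.4% to 44.8% and 44.5% to 54.1%, overlapped. Serpina1d there went from 24.9% ± 1.203 without BBR to 19.4% ± 2.33 with it, and its ranges, 22.9% to 25.9% and 16.5% to 21.8%, did not overlap. Since most windows of Serpina1a and Serpina1c also match another copy, how much of these shifts comes from the division of reads was not tested.

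**Figure D3:**
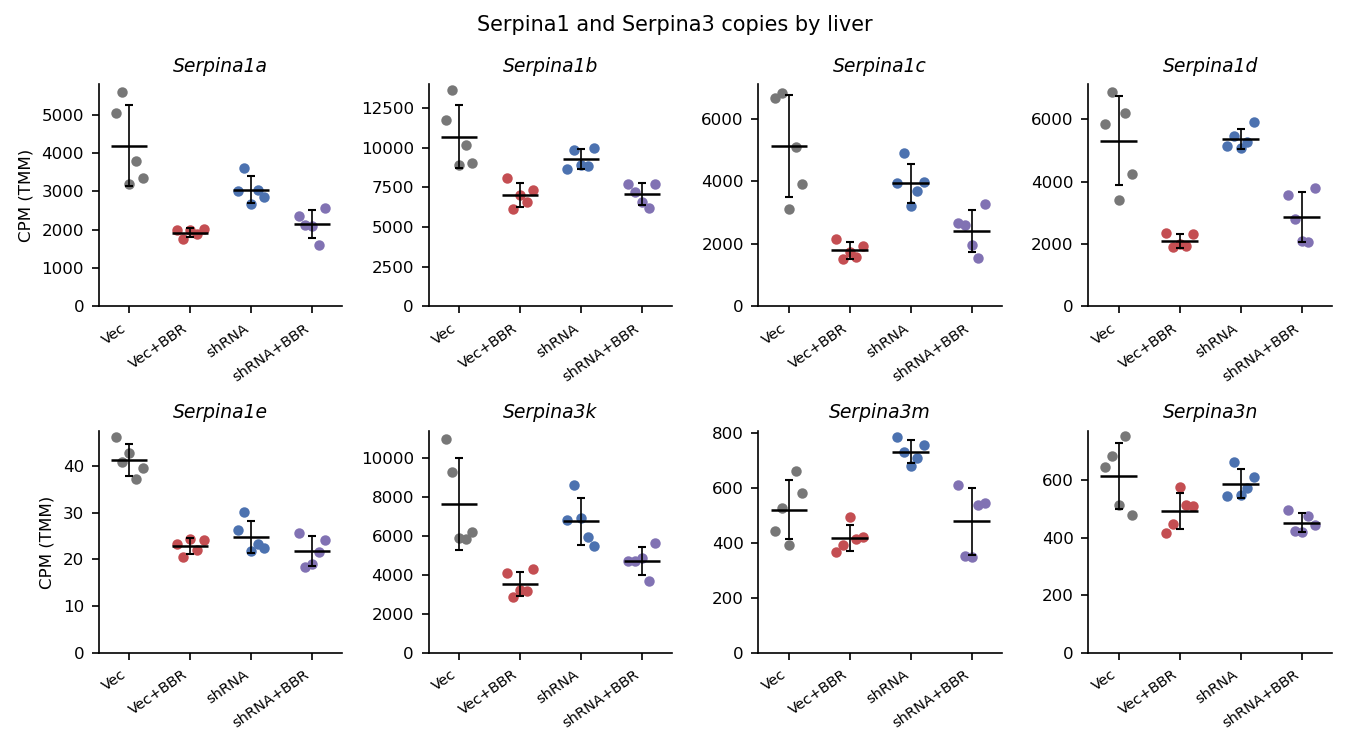
CPM after TMM normalization of the Serpina1 copies and of Serpina3k, Serpina3m and Serpina3n, with 1 point per liver, a bar at the mean and whiskers of 1 SD (n = 5 livers a group), each panel from 0. The Vec+BBR livers lie below all Vec livers for the 5 Serpina1 copies and Serpina3k, while Serpina3m and Serpina3n overlap between these groups.

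**Figure D4:**
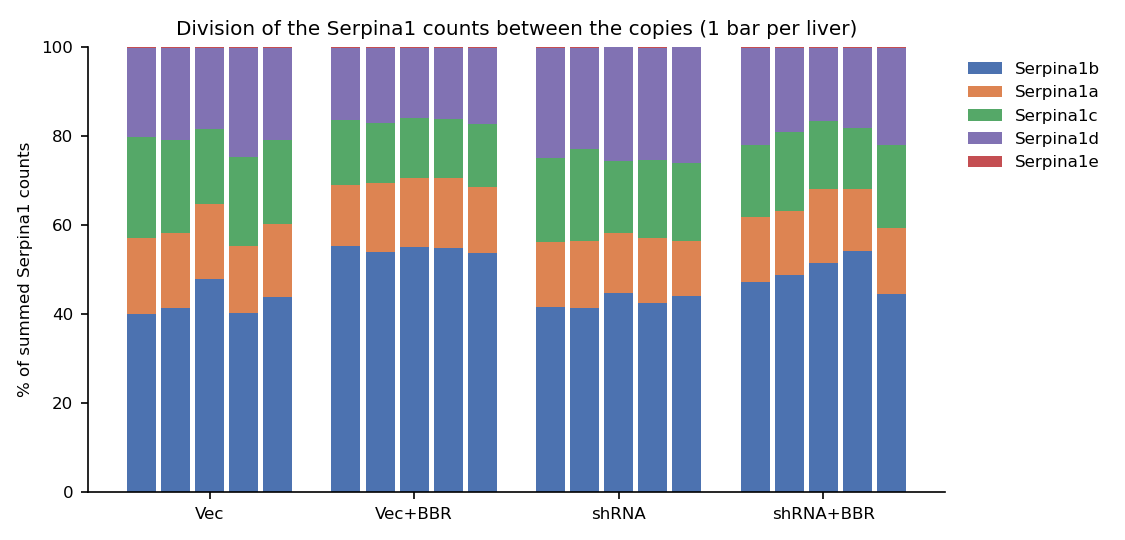
Percent of the summed Serpina1 counts taken by each copy, 1 stacked bar per liver, grouped by treatment. The share of Serpina1b is at least 53.7% in each Vec+BBR liver and at most 47.8% in each Vec liver, and Serpina1e is too scarce to be seen.

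Antichymotrypsin, the human relative of the Serpina3 copies, is a plasma protein of the acute phase, the response of the liver to inflammation. Serpina3k was at 10980, 9304, 5909, 5846 and 6191 CPM in Vec and at 4088, 2851, 3221, 3203 and 4327 CPM in Vec+BBR. Vec replicates 1 and 2 were well above the other Vec livers, and all 5 were above the BBR-treated ones (log2 fold change -1.11 ± 0.18, adjusted p = 0.0006197). In the knockdown mice it was at 6797, 8598, 6925, 5945 and 5464 CPM without BBR and 4703, 4728, 4850, 3682 and 5660 CPM with it. This difference was not past the threshold (log2 fold change -0.51 ± 0.18, adjusted p = 0.0559).

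The other copies passed in other comparisons. Serpina3m, at 445, 526, 393, 661 and 581 CPM in Vec and 786, 731, 679, 710.5 and 756 CPM in shRNA, rose with knockdown without overlap (log2 fold change 0.49 ± 0.15, adjusted p = 0.0376), and that call was lost without Vec replicates 1, 2 or 3 or shRNA replicates 1, 2, 4 or 5 (adjusted p = 0.0607 to 0.0932). In shRNA+BBR it was at 613, 352, 348, 539 and 546 CPM, below every shRNA liver (log2 fold change -0.61 ± 0.15, adjusted p = 0.0147). The Vec+BBR livers held 368, 394, 493, 413 and 421 CPM, which overlapped Vec (log2 fold change -0.32 ± 0.15, adjusted p = 0.163). Serpina3n, an inhibitor of granzyme B and cathepsin G, was at 547 to 664 CPM in shRNA and fell to 421 to 497 CPM in shRNA+BBR (log2 fold change -0.38 ± 0.12, adjusted p = 0.0332), a call that was lost without shRNA replicates 2, 4 or 5 or shRNA+BBR replicates 2, 3 or 4 (adjusted p = 0.0516 to 0.0882). The scarce Serpina3g, at 4.42 to 8.41 CPM in shRNA and 7.09 to 15.2 CPM in shRNA+BBR, rose in the same comparison with overlap (log2 fold change 0.78 ± 0.26, adjusted p = 0.0446), and the call was lost without shRNA replicates 1, 2, 4 or 5 or shRNA+BBR replicates 2, 3 or 4 or with limma-voom, with no low-count filter or with the replicate block (adjusted p = 0.05104 to 0.126). Serpina3f, at 1.16 to 5.11 CPM in Vec, passed in no comparison.

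As a sum the Serpina3 rows fell with BBR in the Vec mice (log2 fold change -0.98 ± 0.16, adjusted p = 0.000543), from 12090, 10520, 6828, 7275 and 7262 CPM to 4881, 3704, 4303, 4142 and 5268 CPM. No BBR-treated liver of these reached the lowest Vec liver. In the knockdown mice the sum was at 6838 to 10000 CPM without BBR and at 4707 to 6660 CPM with it (log2 fold change -0.51 ± 0.16, adjusted p = 0.0336). That call was lost without shRNA replicates 1, 2 or 3 or shRNA+BBR replicates 2, 3 or 4 (adjusted p = 0.0534 to 0.0883). The sum for shRNA against Vec was -0.12 and turned to 0.02 without Vec replicate 1, neither past the threshold.

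Serpina6 encodes corticosteroid-binding globulin, the plasma carrier of glucocorticoids, which does not inhibit proteases. It was measured at 455, 657, 335, 387 and 341 CPM in Vec and at 382, 209, 261, 202 and 278 CPM in Vec+BBR. Vec+BBR replicate 1 lay within the Vec range, and the gene fell (log2 fold change -0.71 ± 0.17, adjusted p = 0.00943), a call that was lost with only the groups compared in the fit (adjusted p = 0.0525). The knockdown livers gave 369, 323, 362, 391 and 314 CPM without BBR and 330.4, 385, 303, 298 and 352 CPM with it. They overlapped (log2 fold change -0.08 ± 0.17, adjusted p = 0.779).

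Antithrombin, encoded by Serpinc1, inhibits thrombin and factor Xa and is potentiated by heparin. Its level was 2376, 2820, 2521, 2092 and 2254 CPM in Vec and 2109, 1790, 2123, 1943 and 1987 CPM in Vec+BBR. The fall was small, with overlap between the groups (log2 fold change -0.28 ± 0.09, adjusted p = 0.0347), and the call was lost without Vec replicates 1 or 2 or Vec+BBR replicates 2, 4 or 5 or with no low-count filter, with the replicate block or with only the groups compared in the fit (adjusted p = 0.0517 to 0.101). The shRNA livers held 2387, 2370, 2383, 2273 and 2491 CPM and the shRNA+BBR livers 2256, 2399, 2007, 2088 and 2083 CPM. No other comparison of Serpinc1 passed, and the estimate for BBR under knockdown was -0.14 (adjusted p = 0.277). Zbtb37 overlaps Serpinc1 on the opposite strand and was near 3 CPM in each group, and the gene model Gm37729 overlaps it on the same strand.

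Heparin cofactor II, the product of Serpind1, inhibits thrombin alone among the clotting proteases. The Vec livers held 624, 675, 402, 634 and 502 CPM and the Vec+BBR livers 459, 381, 473, 396 and 442 CPM. Vec replicate 3 was within the range of the BBR-treated livers. Serpind1 fell (log2 fold change -0.40 ± 0.12, adjusted p = 0.0330), but the call was lost without Vec replicates 1, 2 or 4 or Vec+BBR replicates 2, 4 or 5 or with the replicate block or with only the groups compared in the fit (adjusted p = 0.0501 to 0.101). Under knockdown it fell from 619.8, 563, 607, 592 and 501 CPM to 446, 375, 334, 438 and 455 CPM, without overlap (log2 fold change -0.49 ± 0.12, adjusted p = 0.0148), and this call was lost without shRNA+BBR replicate 3 (adjusted p = 0.0504).

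Of the other serpins of clotting, Serpina10, the protein Z-dependent inhibitor of factor Xa, was at 140.5 to 198 CPM in Vec and at 112 to 139 CPM in shRNA, and fell with knockdown alone (log2 fold change -0.33 ± 0.09, adjusted p = 0.0261). The call was lost without Vec replicates 1 or 2 or shRNA replicates 3 or 5 or with only the groups compared in the fit (adjusted p = 0.0620 to 0.0867). Serpina5, the inhibitor of activated protein C, was the member nearest to the floor, with 0.301, 0.193, 0.392, 0.101 and 0.141 CPM in Vec, which stand for 2 to 8 counts a liver. It was at 0.6397, 1.004, 0.644, 0.9199 and 1.00 CPM in shRNA, from 14 to 24 counts. No liver of these groups overlapped, and Serpina5 rose (log2 fold change 1.86 ± 0.36, adjusted p = 0.00182). Vec replicates 2, 4 and 5 were at or below the floor of 3 counts, so the size of this rise is uncertain. Vec+BBR gave 0.214, 0.403, 0.143, 0.312 and 0.3295 CPM and shRNA+BBR 0.824, 0.5801, 0.521, 0.7303 and 0.244 CPM. The knockdown difference between those BBR-treated groups did not pass (log2 fold change 1.03 ± 0.36, adjusted p = 0.0748).

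Serpinf2 encodes α2-antiplasmin, which inhibits plasmin, the protease that dissolves fibrin. Serpinf2 was called lower in all 4 pairwise comparisons. It was at 536, 667, 345, 554 and 442 CPM in Vec, and at 359, 323, 403, 389 and 370.2 CPM in Vec+BBR (log2 fold change -0.46 ± 0.13, adjusted p = 0.0177). The shRNA livers gave 344, 372, 359.8, 311 and 346 CPM (log2 fold change -0.55 ± 0.13, adjusted p = 0.00647 against Vec). Vec replicate 3, at the bottom of its group, lay within the range of both. The lowest values were those of shRNA+BBR, at 301, 244, 234, 279 and 274 CPM, which lay below every Vec+BBR liver (log2 fold change -0.47 ± 0.13, adjusted p = 0.0261) and every shRNA liver (log2 fold change -0.38 ± 0.13, adjusted p = 0.04696). Its fall with BBR in Vec mice was lost without Vec replicate 2 or with only the groups compared in the fit (adjusted p = 0.0663 to 0.0667). Its fall with knockdown in BBR-treated mice was lost without Vec+BBR replicates 3, 4 or 5 or shRNA+BBR replicates 2 or 3 (adjusted p = 0.0532 to 0.07397). Its fall with BBR in knockdown mice was lost without shRNA replicates 1, 2, 3, 4 or 5 or shRNA+BBR replicates 2, 3, 4 or 5 or with no low-count filter or with the replicate block (adjusted p = 0.0508 to 0.126). The fall with knockdown alone held in every fit.

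Serpine2, the member of clade E, encodes protease nexin-1, an inhibitor of thrombin and plasminogen activators at cell surfaces. It was at 0.902, 0.579, 1.27, 0.355 and 1.18 CPM in Vec and at 1.03, 1.52, 1.05, 0.937 and 1.13 CPM in Vec+BBR, which overlapped (log2 fold change 0.38 ± 0.30, adjusted p = 0.414). The shRNA livers gave 0.503, 0.558, 0.805, 0.613 and 0.417 CPM and the shRNA+BBR livers 1.02, 0.746, 0.805, 1.69 and 0.929 CPM. Of the latter, replicates 2 and 3 lay within the shRNA range, and the difference missed the threshold (log2 fold change 0.83 ± 0.31, adjusted p = 0.06998). Serpine2 passed in no comparison.

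Serpinh1 encodes HSP47, the chaperone of procollagen in the endoplasmic reticulum, and it was higher with BBR under both vectors. It was at 7.46, 5.91, 12.3, 4.61 and 11.96 CPM in Vec, with replicates 3 and 5 well above the other 3, and at 13.2, 12.7, 14.7, 14.5 and 13.4 CPM in Vec+BBR. All BBR-treated livers lay above the highest Vec liver (log2 fold change 0.69 ± 0.21, adjusted p = 0.0314), and the call was lost without Vec replicates 1, 2 or 4 or Vec+BBR replicates 2, 3 or 4 or with only the groups compared in the fit (adjusted p = 0.0503 to 0.0891). The shRNA livers gave 4.52, 5.75, 5.999, 5.26 and 3.50 CPM and the shRNA+BBR livers 10.4, 11.3, 12.7, 13.2 and 7.82 CPM, again without overlap (log2 fold change 1.15 ± 0.22, adjusted p = 0.00445). With knockdown alone it fell against Vec (log2 fold change -0.76 ± 0.22, adjusted p = 0.0265), with overlap, which was lost without Vec replicates 3 or 5 or shRNA replicates 1, 4 or 5 or with limma-voom or with only the groups compared in the fit (adjusted p = 0.0512 to 0.0873).

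Some markers of the stellate cells, which make collagen, rose in the same BBR comparisons as Serpinh1. Of 12 listed markers 5 rose and none fell with BBR in Vec mice, where 7.58% of all genes rose and 7.88% fell. Their median was 0.67 against -0.01 over all genes, and their summed level ranged from 252.5 to 459.6 CPM in Vec and from 511.7 to 543.0 CPM in Vec+BBR. Col1a1 was at 1.18 on the log2 scale (adjusted p = 0.0148) and Col1a2 at 1.13 (adjusted p = 0.00817). Under knockdown 5 of the 12 rose and none fell with BBR, beside 8.37% and 7.28% of all genes, with a median of 0.55 against 0.01, and the sum ranged from 347.3 to 399.5 CPM in shRNA and from 424.2 to 583.2 CPM in shRNA+BBR. Endothelial markers rose in 7 of 10 with BBR in Vec mice and in 1 of 10 under knockdown, where 2 fell. None of the 12 stellate or 10 endothelial markers was at 0 in any group. Their part in the values of Serpinh1 was not tested, and in bulk tissue fewer cells of a type and less RNA per cell cannot be told apart.

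Serping1 encodes C1 inhibitor, which holds back the first proteases of complement and plasma kallikrein. It was at 1010, 1009, 789, 1020 and 813 CPM in Vec and at 730.3, 508, 577, 559 and 672 CPM in Vec+BBR. No liver overlapped and Serping1 fell (log2 fold change -0.61 ± 0.12, adjusted p = 0.00166). The knockdown livers gave 723, 805, 725, 667 and 719 CPM without BBR and 650.2, 811, 648, 547 and 698 CPM with it. Against Vec the shRNA level was lower, with shRNA replicate 2 inside the Vec range (log2 fold change -0.35 ± 0.11, adjusted p = 0.0468), and the call was lost without Vec replicates 1, 2 or 4 or shRNA replicates 1, 3, 4 or 5 or with limma-voom, with RLE factors, with no low-count filter, with the replicate block or with only the groups compared in the fit (adjusted p = 0.0509 to 0.115). BBR made no difference past the threshold under knockdown (log2 fold change -0.12 ± 0.11, adjusted p = 0.494).

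Serpinf1, whose product PEDF inhibits vessel growth and not proteases, also fell with BBR in the Vec mice. Its values were 699, 828, 644, 627 and 618 CPM in Vec and 546, 469, 495, 476 and 509 CPM in Vec+BBR, again apart (log2 fold change -0.45 ± 0.10, adjusted p = 0.00474). In shRNA they were 599, 646, 584, 620.4 and 679 CPM and in shRNA+BBR 626, 597, 462, 534 and 669.6 CPM. These overlapped (log2 fold change -0.12 ± 0.10, adjusted p = 0.432), and no other comparison of Serpinf1 passed.

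Serpina11 moved with the vector and not measurably with BBR. It was at 22.7, 27.6, 31.9, 19.7 and 21.5 CPM in Vec and at 15.9, 18.5, 14.1, 12.3 and 15.3 CPM in shRNA, without overlap (log2 fold change -0.70 ± 0.15, adjusted p = 0.00431). With BBR it was at 24.5, 21.5, 26.8, 26.4 and 24.4 CPM in Vec mice and at 16.1, 18.7, 23.4, 15.5 and 12.2 CPM in knockdown mice. These overlapped through shRNA+BBR replicate 3, and Serpina11 was lower with knockdown (log2 fold change -0.53 ± 0.15, adjusted p = 0.0348), which was lost without Vec+BBR replicates 1, 2, 3, 4 or 5 or shRNA+BBR replicates 1, 2, 4 or 5 (adjusted p = 0.0502 to 0.0836). Of its coding windows 49.4% also occur in Gm28577, a gene model that overlaps it on the same strand. Serpina12, vaspin, ranged from 0.7605 to 16.5 CPM over the Vec livers and passed in no comparison, with 1.52 for BBR under knockdown (adjusted p = 0.0555).

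The clade B serpins act inside cells and guard them against proteases such as cathepsin G and granzyme B. Serpinb6a was the most abundant of them and rose with BBR in the Vec mice. It was at 8.67, 8.68, 13.4, 11.6 and 12.1 CPM in Vec and at 14.1, 30.99, 24.3, 27.1 and 24.5 CPM in Vec+BBR. The ranges were apart, by little for Vec+BBR replicate 1, and the rise was 2.22-fold (log2 fold change 1.15 ± 0.22, adjusted p = 0.00186). The shRNA livers gave 18.2, 17.8, 14.5, 18.3 and 12.3 CPM and the shRNA+BBR livers 24.2, 16.6, 20.1, 38.4 and 17.4 CPM, which overlapped (log2 fold change 0.53 ± 0.22, adjusted p = 0.0953). Serpinb6a overlaps Nqo2 and Ripk1 on the opposite strand, and the library kit does not mark strand. With BBR in Vec mice Nqo2 was lower (log2 fold change -0.32 ± 0.09, adjusted p = 0.0243) and Ripk1 was at 0.09 (adjusted p = 0.578).

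Serpinb9, the inhibitor of granzyme B, was lower with knockdown. The Vec livers held 10.7, 6.68, 9.12, 12.3 and 12.01 CPM and the shRNA livers 7.13, 4.91, 4.91, 6.13 and 6.17 CPM. Apart from Vec replicate 2 and shRNA replicate 1 the groups did not overlap (log2 fold change -0.80 ± 0.17, adjusted p = 0.00451). Vec+BBR gave 9.88, 9.18, 7.09, 7.68 and 10.4 CPM and shRNA+BBR 5.43, 6.21, 8.62, 8.81 and 5.82 CPM, and none of the other comparisons passed. Serpinb6b, at 0.917 to 1.62 CPM in shRNA and 1.79 to 3.22 CPM in shRNA+BBR, rose with BBR under knockdown (log2 fold change 0.94 ± 0.32, adjusted p = 0.0496), and the call was lost without shRNA replicates 1, 2, 3, 4 or 5 or shRNA+BBR replicates 2, 3 or 4 or with no low-count filter or with the replicate block (adjusted p = 0.0518 to 0.139). With BBR in Vec mice it was at 0.95 (adjusted p = 0.0504). Serpinb1a, an inhibitor of neutrophil elastase, and Serpinb8 passed in no comparison and ranged over the 20 livers from 5.42 to 27.6 CPM and from 0.725 to 2.78 CPM.

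**Figure D5:**
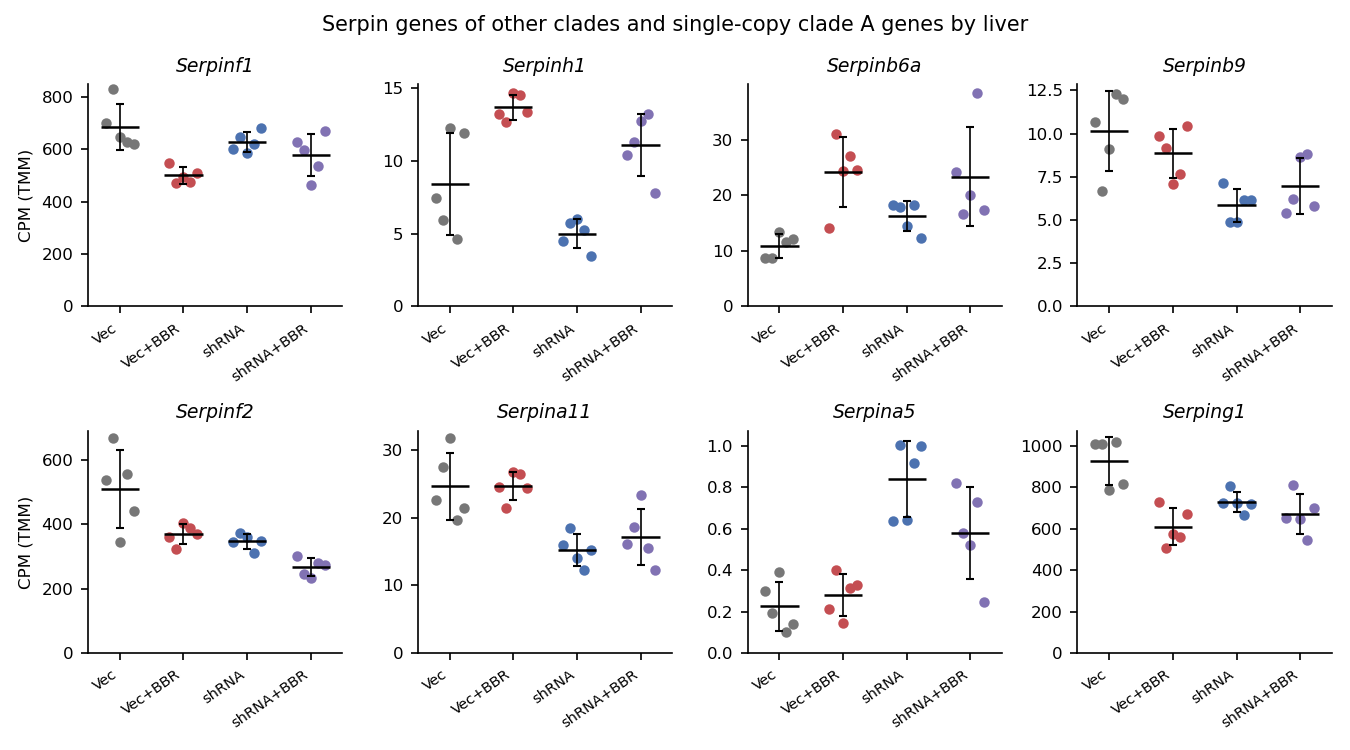
CPM after TMM normalization of 8 further Serpin genes, with 1 point per liver, a bar at the mean and whiskers of 1 SD (n = 5 livers a group), each panel from 0. Serpinh1 is higher in Vec+BBR and shRNA+BBR than in the matching groups without BBR, Serpina5 is higher in shRNA than in Vec, and Serpinf2 is lowest in shRNA+BBR.

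Among the proteases that serpins inhibit, several that the liver secretes were lower with BBR. Of 30 listed proteases 26 were tested, and in Vec mice 7 fell and 2 rose with BBR, where 7.88% of all genes fell and 7.58% rose, with a median of -0.09 against -0.01 over all genes. Factor VII (F7) was at -1.05 on the log2 scale (adjusted p = 0.000723), plasminogen (Plg) at -0.52 (adjusted p = 0.00263), factor X (F10) at -0.44 (adjusted p = 0.00294) and protein C (Proc) at -0.45 (adjusted p = 0.00452). Under knockdown 3 fell and 4 rose with BBR, beside 7.28% and 8.37% of all genes. Tissue plasminogen activator (Plat), which turns plasminogen into plasmin, rose with BBR under both vectors. It was at 1.21 in Vec mice (adjusted p = 0.0464) and at 1.81 under knockdown (adjusted p = 0.0119), and the difference did not pass (adjusted p = 0.597). With knockdown 3 of the 26 fell in vehicle-treated mice, beside 7.91% of all genes, and 2 fell in BBR-treated mice, beside 4.82%, and none rose in edgeR, beside 5.28% and 3.31%.

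Cofactors and receptors of serpins gave a like count. Of 18 listed, 17 were tested, and 7 fell and 1 rose with BBR in Vec mice, again beside 7.88% and 7.58% of all genes, with a median of -0.35 against -0.01. Vitronectin (Vtn), an adhesion protein of plasma, was at -0.64 (adjusted p = 0.00120) and the heparin-binding Hrg at -0.88 (adjusted p = 0.00115). The chaperone Hspa5 rose (0.38, adjusted p = 0.01201). With BBR under knockdown 4 fell and none rose, beside 7.28% and 8.37% of all genes, among them Lrp1, the receptor that clears serpin complexes, at -0.74 (adjusted p = 0.0131). In vehicle-treated mice 3 fell with knockdown and none rose, beside 7.91% and 5.28% of all genes, and in BBR-treated mice none of the 17 passed in edgeR, beside 4.82% lower and 3.31% higher.

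The fall of the plasma serpins with BBR stood beside that of other genes of hepatocytes, of which only some encode secreted proteins. In Vec mice 7.88% of all genes fell and 7.58% rose. Of 23 tested acute phase genes 9 fell and none rose there, with a median of -0.38 against -0.01 over all genes, among them the fibrinogen gene Fgb (-0.48, adjusted p = 0.00515). Under knockdown 3 fell and 4 rose with BBR, beside 7.28% and 8.37% of all genes, and the fibrinogen gene Fga fell (-0.39, adjusted p = 0.0166) while Saa2 rose (1.38, adjusted p = 0.0212). Of 10 hepatocyte markers 4 fell and none rose with BBR in Vec mice. They included Cps1 (-1.10), an enzyme inside the cell, and the secreted Ahsg (-0.67), while the secreted Alb did not pass (-0.27, adjusted p = 0.114). The sum of the 10 markers ranged from 143900 to 176300 CPM in Vec and from 107600 to 148800 CPM in Vec+BBR. Their part in the fall of the serpins was not tested. In the same comparison macrophage markers rose in 1 and fell in 2 of 12, and of 8 cholangiocyte markers, 6 of them tested, 1 rose. Lymphocyte markers, of which 4 were tested, fell in 1, and neutrophil markers, with 3 tested, in none by edgeR. Of the neuron list 1 gene was tested and fell, 1 of 2 tested adipose genes rose, and no pancreas acinar marker passed the low-count filter.

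With BBR under knockdown the Serpina1 copies a to d fell as well, and 8.37% of all genes rose and 7.28% fell. Of 10 hepatocyte markers 1 rose and 1 fell there, with a median of -0.04 against 0.01 over all genes. The sum of the 10 markers ranged from 130400 to 144300 CPM in shRNA and from 120800 to 140800 CPM in shRNA+BBR. Of 12 macrophage markers 3 rose and 1 fell, with a median of 0.16, and their sum ranged from 258.4 to 352.6 CPM without BBR and from 323.4 to 461.7 CPM with it. The neutrophil gene S100a8 rose (2.14, adjusted p = 0.0179) among 3 tested, and 1 of 4 lymphocyte, 1 of 6 cholangiocyte and 2 of 2 tested adipose genes rose, beside 8.37% of all genes. The tested neuron gene did not pass. Their part in the values of the serpins was not tested.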

How the data were processed

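Liver mRNA of 20 mice, 5 in each of 4 groups, was enriched with oligo(dT) beads and sequenced with a kit that does not mark strand. Each mouse gave 1 library, and groups and replicate numbers were taken from the labels. The authors deposited 2 values per gene and library, the expected count, in which reads that match several genes are divided between them, and the FPKM, which are scaled to transcript length and library size. Between 91.9% and 93.3% of the deposited expected counts of a library were whole numbers. The submitters' processing notes name the build mm10, and the aligner, counter and annotation are not given in the sources used here.

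Expected counts were rounded to whole numbers, filtered with filterByExpr (minimum count 10, minimum total 15) and normalized by TMM, with 76 rows without a symbol kept under their identifiers. A quasi-likelihood model with a mean for each of the 4 groups was fitted with edgeR 4.0.16 in R 4.3.3, and p-values were adjusted by Benjamini-Hochberg over 12342 genes with a threshold of 0.05. The functions were tested on simulated data. FPKM were used for levels only. Alternatives were DESeq2 1.42.0, limma-voom (limma 3.58.1), RLE factors, no low-count filter, only the groups compared, the replicate number as a block, and each library left out in turn. The sums of copies were fitted in a table in which their rows were replaced by 1 row. No pair of libraries within a group was a duplicate, with at least 14.3 chi-square per gene over 40 pairs. Intervals and floors that rest on counts cover counting error only.

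Serpin rows were members at a mean count of at least 5, and 2 Serpin genes are not reported here. Members and gene lists (serpin target proteases, serpin cofactors and receptors, acute phase genes and markers of hepatocyte, stellate cell, endothelial cell, macrophage, neutrophil, lymphocyte, cholangiocyte, pancreas acinar, adipose and neuron) were chosen with earlier results of these data known. Values in every library were given for the 16 members with the smallest adjusted p-value in any comparison and for the leading member by FPKM in each clade, and at most 6 genes were named per list. Sequences came from GENCODE M21 and RefSeq, and were aligned with MAFFT 7.526.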

Additional observations from a re-analysis of the deposited data

Results flagged for a closer look

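In 2 of 108 groups of 5 livers (27 members in 4 groups), 1.85%, a single liver stood apart from the other 4 by a gap of more than 0.71 of the whole range of its group, where chance alone sets apart about 1 in 20 groups. Serpina3f was at 8.58 CPM in shRNA+BBR replicate 2, and the next liver of the group was at 3.5 CPM. Serpine2 was at 1.69 CPM in shRNA+BBR replicate 4, and the next liver was at 1.02 CPM. Neither gene passed the threshold in any comparison.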

How the results depend on the processing

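Of 37 member calls in the 4 pairwise comparisons, 17 were kept under every alternative, 20 were lost under at least 1, and none of the 37 was reversed in edgeR, DESeq2 or limma-voom. DESeq2 called 1 member for the difference of the BBR effects, where edgeR called 0, and with only the groups compared in the fit 9 members were called for Vec+BBR vs Vec in place of 14. When 1 library was left out, the number of members called ran from 10 to 16 for Vec+BBR vs Vec, from 5 to 10 for shRNA vs Vec, from 0 to 2 for shRNA+BBR vs Vec+BBR, from 3 to 12 for shRNA+BBR vs shRNA, and from 0 to 1 for the difference, which was 1 without Vec replicate 4, Vec+BBR replicate 1 or shRNA replicate 2. The Serpina1 sum for shRNA+BBR vs shRNA ran from -0.65 to -0.50 and the Serpina3 sum from -0.58 to -0.42, and the Serpina3 sum for shRNA vs Vec ran from -0.21 to 0.0193, which was the value without Vec replicate 1. The cause of these changes was not tested. Counting every Serpin row with any mean count above 0 gave 49 members in place of 27. The replicate numbers are not said to pair the mice, and correlations over 0.1 between equal numbers were found for 3 of 5 numbers in shRNA+BBR vs shRNA, for 1 of 5 in Vec+BBR vs Vec and for 0 in the others. With the replicate number as a block, 13 members were called for Vec+BBR vs Vec, 9 for shRNA vs Vec, 2 for shRNA+BBR vs Vec+BBR, 9 for shRNA+BBR vs shRNA and 0 for the difference. For the difference, a fit with only the groups compared was not run, since it needs all 4 groups. Depth limits the scarcest member, Serpina5, which had 2 to 8 counts in the Vec libraries.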
